A study of Bos taurus with 6 samples.

Results

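miR-129 and its genomic neighbour miR-6528 were followed through 6 small RNA libraries of bovine cumulus cells, the somatic cells that surround the oocyte. They were chosen by name from the deposited count table, where bta-miR-129, bta-miR-129-5p, bta-miR-129-3p and bta-miR-6528 are 4 of 1055 entries. The 4 entries were taken up because their counts had been seen: the miR-129 entries ran close together, and miR-6528 was nearly lost in a single library while miR-129 was not. The agreement of the entries and the loss of miR-6528 are therefore given as a description, without a test. Group comparisons of miR-129 were tested, but these tests are not independent of that choice. Each library was made from total RNA of cumulus pieces pooled from several in vitro matured cumulus-oocyte-complexes (COCs), whose oocytes were then fertilized and cultured one by one. The oocytes of Samples A, B and C failed to divide once sperm had been added (not-cleaved samples), and those of Samples D, E and F became blastocysts (blastocyst samples). All COCs came from slaughterhouse ovaries and were matured with serum and follicle stimulating hormone, and no group carried another treatment. The ovaries are a mixed population and every library is a pool, so variation between single COCs is not seen in these values.

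MicroRNAs are cut from hairpin precursors, and the 5′ and 3′ sides of a hairpin each yield a mature arm, named 5p and 3p. One arm is usually kept by the Argonaute protein and guides it to messenger RNAs through the seed, bases 2 to 8, whereas the other arm is mostly degraded. In mammals miR-129 is made from a pair of unlinked precursors that carry the same 5p arm but differ in the 3p arm. It is best known from brain, and in human cells its 5p arm represses the transcription factor SOX4 and the cell cycle kinase CDK6. By the RefSeq annotation of the ARS-UCD2.0 assembly, bovine MIR129-1 lies between SND1 and LEP, the leptin gene. MIR129-2 lies between MIR6528 and HSD17B12, a gene of fatty acid elongation. MIR6528 and MIR129-2 are next to each other with no annotated gene between them, and no annotated gene contains either of them. The count table does not say at which precursor an entry was counted. The entry bta-miR-129, whose name gives no arm, was read here as a 5p entry, and its sequence was not checked. The role of miR-6528 is not stated here.

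The libraries held 2776256 to 8139237 counts. CPM below are an entry's counts as a share of the library total, scaled to 1000000. Each miR-129 entry had at least 273 counts in every library. Sample E, of the blastocyst group, stood apart: of the 257 entries whose mean count reached 50, 14 (5.45%) lay lower than the median of the remaining 5 libraries by over 3 log2 units, while such entries numbered 0 in Samples A, B, C and D and 1 in Sample F. Entries more than 3 units above the others numbered 9 in Sample B, 4 in Sample E and 0 elsewhere. Of the 4 entries described here, only miR-6528 was beyond either limit, among the 14 low in Sample E. Reads carried no molecular identifiers, so the intervals given for shares cover counting error only. The sources do not say whether the pools of a group were separate cultures or days, and p-values thus measure the spread between these pools.

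The 5p arm of miR-129 was well expressed in every library. Samples A, B and C had 6210, 1215 and 1618 counts of bta-miR-129-5p (MIMAT0009221), and Samples D, E and F had 4270, 2302 and 2224. These counts are 789.6, 437.6 and 378.3 CPM in the samples that did not cleave and 524.6, 648.3 and 597.8 CPM in the blastocyst samples. Sample A was highest and Samples C and B lowest, so the not-cleaved group spanned the blastocyst group on both sides. The mean over all libraries, 562.7 CPM, placed it at rank 74 of 1055 entries.

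The entry without an arm in its name followed the 5p entry almost count for count. bta-miR-129 (MIMAT0009220) had 5866, 1158 and 1542 counts in Samples A, B and C, and 4129, 2276 and 2211 in Samples D, E and F. Its levels were 745.8, 417.1 and 360.5 CPM in the not-cleaved samples and 507.3, 640.9 and 594.3 CPM in the blastocyst samples, with the 6 libraries in the same order as for bta-miR-129-5p. The named 5p entry had the larger count in each library, by 344, 57 and 76 counts in Samples A, B and C and by 141, 26 and 13 in Samples D, E and F. It therefore took 51.4% of the 5p counts in Sample A (Wilson 95% interval 50.5% to 52.3%), and 50.1% in Sample F (48.7% to 51.6%), the lowest share. The interval left out an equal split in Sample A alone, and in Sample D it ran from 49.8% to 51.9%. The difference between the entries was 0.293% to 2.85% of their sum, with a median of 2.04%. Among entries that carry the same name in the table, 20 miRNAs gave 119 pair values with at least 1000 counts together, and their differences had a median of 1.99% of the sum (quartiles 0.958% and 3.82%). How reads that fit both precursors were shared between the entries, and whether both count the same molecules, was not tested, so the 2 entries are not separate evidence of a level.

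The 3p arm was less abundant and did not follow the 5p arm. Samples A, B and C had 939, 405 and 347 counts of bta-miR-129-3p (MIMAT0009222), and Samples D, E and F had 1365, 381 and 273. In CPM it was at 119.4, 145.9 and 81.1 in the not-cleaved samples and at 167.7, 107.3 and 73.4 in the blastocyst samples. The highest and lowest libraries, Samples D and F, were both of the blastocyst group. Of all miR-129 counts in the not-cleaved group, the 3p arm took 7.21% (Wilson 95% interval 6.78% to 7.67%) for Sample A, 14.6% (13.3% to 15.9%) for Sample B and 9.89% (8.95% to 10.9%) for Sample C. For the blastocyst group it took 14.0% (13.3% to 14.7%) in D, 7.68% (6.97% to 8.46%) in E and 5.80% (5.17% to 6.50%) in F. Samples B and D, one of each fate, had the highest shares; the intervals cover counting error and not the spread between pools. If the 3p entry is set against the named 5p entry alone, the shares are 13.1%, 25% and 17.7% in Samples A, B and C and 24.2%, 14.2% and 10.9% in D, E and F, nearly double but in the same order. Across libraries, log2 CPM of the 5p entries together and of the 3p entry had a Pearson r of 0.03 and a Spearman rho of -0.03 (n = 6), whereas both 5p entries had a Pearson r of 0.997. The share of an arm within a library needs no scaling between libraries. It is the share of all miR-129 counts and not the arm ratio of a precursor, since the precursor of each entry is not known. The precursors differ in the 3p arm, and a single 3p entry was set against both 5p entries.

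Uneven arm shares were not limited to miR-129. The log2 ratio of 3p to 5p counts of miR-129 had an SD of 0.60 over the 6 libraries. In 15 other miRNAs whose arms both had a mean of at least 50 counts, this SD had a median of 0.50 and ran from 0.21 to 1.73, and miR-129 was at rank 8 of 16. Without Sample E the SD of miR-129 was 0.65 and the median of the others 0.43, with miR-129 at rank 5 of 16.

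**Figure D1:**
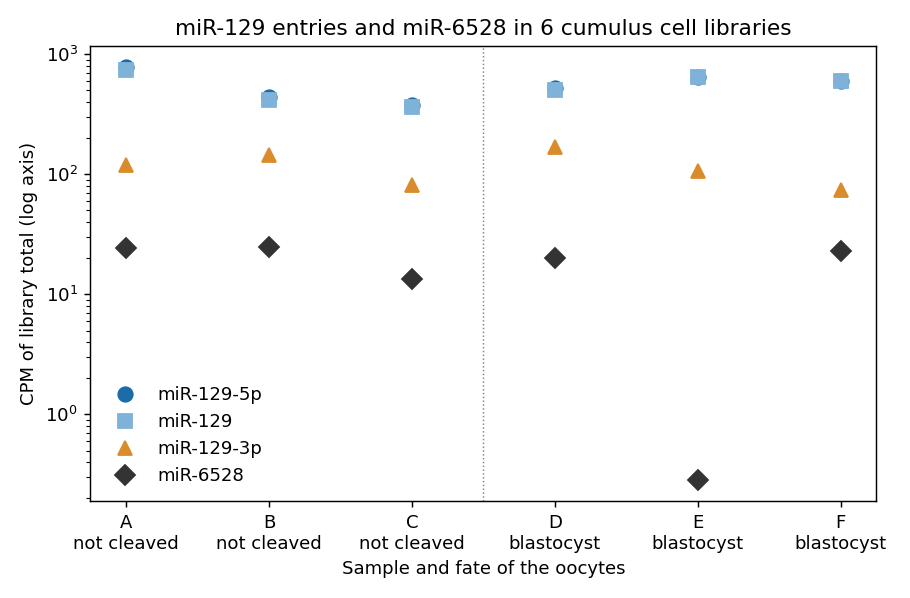
CPM of the library total, on a log axis, of the 4 entries in each library, with the not-cleaved Samples A, B and C left of the dotted line and the blastocyst Samples D, E and F right of it; each point is 1 library. The symbols of both 5p entries overlap, and miR-6528 is at 0.282 CPM in Sample E against 13.6 to 24.9 CPM elsewhere.

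**Figure D2:**
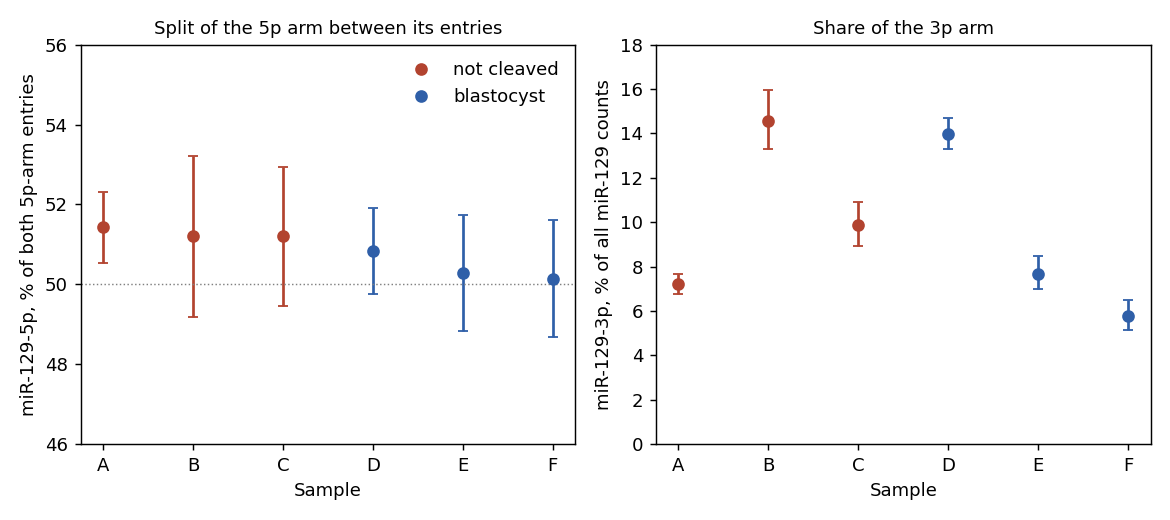
Left, the share of miR-129-5p in the counts of both 5p entries, where the dotted line is an equal split and the axis does not start at 0; right, the share of miR-129-3p in all miR-129 counts. Points are libraries and bars are Wilson 95% intervals; the left shares lie between 50.1% and 51.4%, and on the right Samples B (14.6%) and D (14.0%) are above the others.

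miR-6528 was a low but steady entry in 5 libraries and nearly absent in the sixth. Samples A, B and C had 190, 69 and 58 counts of bta-miR-6528 (MIMAT0025562), and Samples D, E and F had 165, 1 and 86. In CPM it was at 24.2, 24.9 and 13.6 in the not-cleaved samples and at 20.3, 0.282 and 23.1 in the blastocyst samples. Outside Sample E the highest level was 1.83 times the lowest, a smaller spread than the 2.09 times of miR-129-5p and the 2.29 times of miR-129-3p over the same libraries. The single count in Sample E has an exact Poisson 95% interval of 0.0253 to 5.57 counts, up to 1.57 CPM. The median of the other libraries, 23.1 CPM, was 82.1 times the level in Sample E, with a counting interval of 14.7 to 3242 times.

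Beside its neighbour, miR-6528 was low in Sample E on each scale. For every 1000 miR-129 counts, Samples A, B and C had 14.6, 24.8 and 16.5 counts of miR-6528, and Samples D and F had 16.9 and 18.3, against 0.202 in Sample E. At the lowest and highest of the other libraries' ratios, Sample E would hold 72.4 to 123.2 counts. As a share of miR-6528 and miR-129 counts together, miR-6528 took 0.0202% in Sample E (Wilson 95% interval 0.00356% to 0.114%) and 1.44% to 2.42% in the other libraries, whose lowest interval bound was 1.25%. Against the 3p entry alone, a ratio added after the data were seen, there were 2.62 counts of miR-6528 per 1000 in Sample E and 120.9 to 315.0 in the others. Sample E was not short of miR-129: its 4959 miR-129 counts, 1397 CPM, were the second highest level of the 6 libraries after the 1655 CPM of Sample A, and the 3p entry lay at 107.3 CPM, between the values of Samples A and C. The library totals of Samples E and B were 3551009 and 2776256 counts. The part of depth in the low count was not tested.

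**Figure D3:**
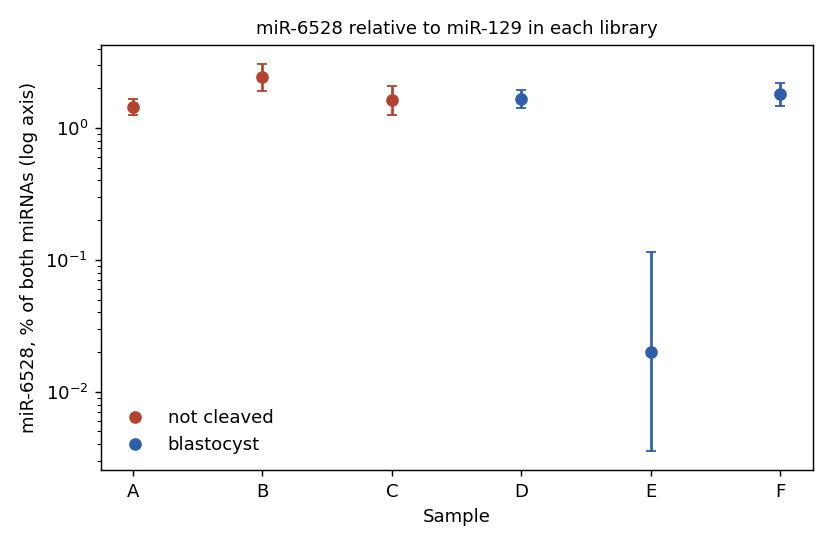
Share of miR-6528 in the counts of miR-6528 and miR-129 together, in percent on a log axis, by library. Points are libraries, coloured by the fate of the oocytes, and bars are Wilson 95% intervals; Sample E is at 0.0202% and the other 5 between 1.44% and 2.42%.

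The loss of miR-6528 in Sample E was shared with other entries and not with miR-129. On the log2 scale, with a prior count of 2, miR-6528 deviated by -5.12 from the median of the other libraries, which placed it at rank 4 from the lowest among the 257 entries. At 1 count the prior makes this deviation smaller, so its size and rank depend on the prior. The 82.1 times given above was taken without a prior. bta-miR-1842, at -3.50, was just inside the limit of 3 units and bta-miR-411a, at -2.60, just outside it. In the same library bta-miR-129 was at 0.34, bta-miR-129-5p at 0.31 and bta-miR-129-3p at -0.15. Of the 14 low entries, of 13 miRNAs, those of highest mean level were bta-miR-1839 (172 counts there, median elsewhere 16249), bta-miR-423-5p (532 against 15390), bta-miR-423-3p (653 against 11004), bta-miR-151-3p (327 against 12200) and bta-miR-660 (182 against 5014). miR-6528 was the least abundant of the 14, with a median of 86 counts in the other libraries. The 14 entries took 0.0659% of the counts of Sample E and 1.56% to 1.96% of those of the others. What these entries have in common was not tested, and no other library showed miR-6528 apart from the rest, the next lowest deviation being -0.75 in Sample C.

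**Figure D4:**
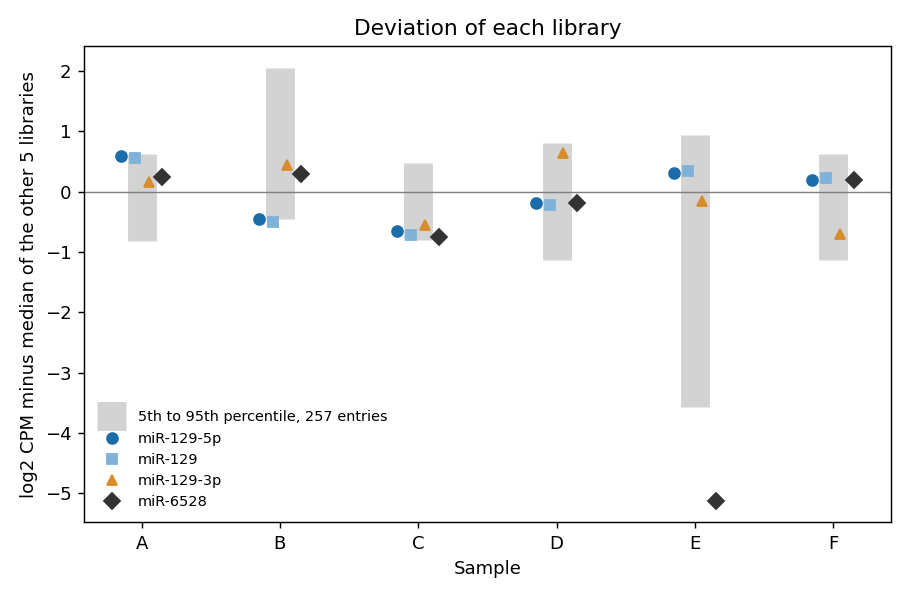
Log2 CPM in each library minus the median of the remaining 5, for the 4 entries (symbols) over the 5th to 95th percentile of the 257 entries whose mean count reached 50 (grey). In Sample E miR-6528 is at -5.12, below the grey range that ends at -3.56, and the miR-129 entries are between -0.15 and 0.34.

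The entries most like miR-6528 over the 6 libraries were others lost in Sample E. By Pearson r of log2 CPM they were bta-miR-660 (r = 0.996), bta-miR-29a (r = 0.996), bta-miR-1839 (r = 0.990), bta-miR-2284x (r = 0.988) and bta-miR-1842 (r = 0.987). These values rest on Sample E: over the other 5 libraries r was 0.81, 0.80, 0.39, 0.30 and 0.76 in the same order. With the 5p entries of miR-129, miR-6528 had an r of -0.23 over 6 libraries and 0.65 over the 5 without Sample E, and with the 3p entry 0.11 and 0.39. Over so few libraries, whose depth and composition differ, these are descriptions. The 5p entries were most like bta-miR-192 (r = 0.964, 689.2 to 993.6 CPM), bta-miR-99b (r = 0.909, 4692 to 7117 CPM), bta-miR-1271 (r = 0.901), bta-miR-450a (r = 0.881) and bta-miR-147 (r = 0.806), and without Sample E these values were 0.97, 0.90, 0.89, 0.88 and 0.78. The other annotated miRNA close to MIR6528 and MIR129-2, miR-670, was near absent: Samples A and E had 5 and 1 counts and Samples B, C, D and F had 0, which allows up to 3 counts.

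The study asked whether cumulus miRNAs differ with the fate of the oocyte, and none of the miR-129 entries passed the test. The miR-129 entries were chosen with their values seen, including those of Sample E, a blastocyst library. Group tests of their levels and arm share are thus not independent of that choice. With all miR-129 entries summed, Samples A, B and C were at 1655, 1001 and 819.9 CPM and Samples D, E and F at 1200, 1397 and 1265 CPM. Means were 1158 ± 439.2 CPM (SD, n = 3) for the not-cleaved group and 1287 ± 100.2 CPM (SD, n = 3) for the blastocyst group, and the blastocyst values lay within the range of the not-cleaved ones (difference 128.8 CPM, two-sided exact permutation test, p = 0.7, where 3 libraries against 3 cannot go below p = 0.1). The value depended on single libraries: without Sample A the difference was 376.9 CPM (exact p = 0.2), and without Sample C it was -40.5 CPM (exact p = 1). Without Sample A every blastocyst value lay above the not-cleaved ones, and p = 0.2 is the lowest that the exact permutation test can give with a library left out. With TMM-scaled CPM the difference was 212.4 (exact p = 0.4), and per library total without miR-21-5p, a smaller denominator, it was 716.2 (exact p = 0.4).

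In edgeR's quasi-likelihood test over 358 entries, 0 (0%) passed an adjusted p of 0.05, and 10 had an unadjusted p under 0.05, none of them an entry of miR-129. DESeq2 called 0 as well, with 7 at an unadjusted p under 0.05. The log2 fold change of blastocyst over not-cleaved was 0.24 for bta-miR-129-5p (SE 0.30), 0.29 for bta-miR-129 (SE 0.30) and 0.15 for bta-miR-129-3p (SE 0.36), each with an adjusted p of 0.993 in edgeR. Over all tested entries the median was -0.02. Without Sample A, the fold changes of bta-miR-129-5p and bta-miR-129 were 0.65 (SE 0.19) and 0.70 (SE 0.20), with unadjusted p of 0.0157 and 0.0130 in edgeR and adjusted p of 0.959 for both. In that fit 10 of 364 entries had an unadjusted p under 0.05. Both 5p entries may count the same molecules, so their p-values are not separate results. The fold change of bta-miR-129-3p turned to -0.25 without Sample D. The groups did not overlap for 34 of the 358 entries (9.50%), and they overlapped for each of the 3 miR-129 entries.

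The share of the 3p arm averaged 10.6% ± 3.73 (SD, n = 3) for the not-cleaved group and 9.15% ± 4.28 (SD, n = 3) for the blastocyst group, a difference of -1.41 points that was smaller than the spread within either group (two-sided exact permutation test, p = 0.6). It was 0.599 points without Sample B, 0.269 without Sample F, and -2.15 (exact p = 0.7) with the named 5p entry alone for the 5p arm.

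For miR-6528 the group values are a description, because the low value of a blastocyst library chose the entry. It averaged 20.9 ± 6.33 CPM (SD, n = 3) for the not-cleaved group and 14.6 ± 12.4 CPM (SD, n = 3) for the blastocyst group, and Samples D and F alone had a mean of 21.7 CPM. Its fitted log2 fold change was -0.37 (SE 1.01) with Sample E and 0.21 (SE 0.36) without it.

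**Figure D5:**
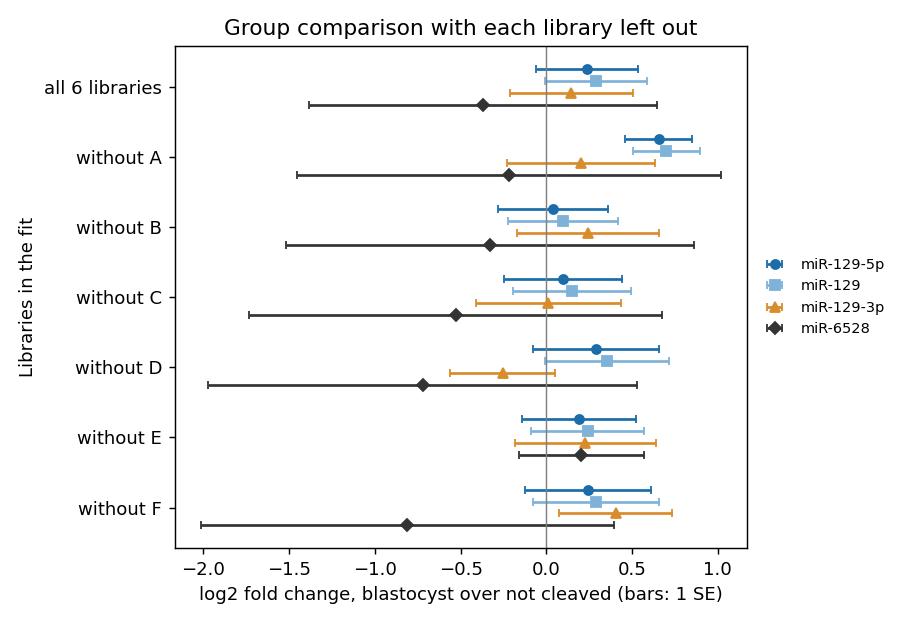
Log2 fold change of blastocyst over not-cleaved samples from edgeR for each of the 4 entries, with all 6 libraries and with each library left out; points are estimates and bars are 1 SE. The 5p entries move from 0.24 and 0.29 to 0.65 and 0.70 without Sample A, and miR-6528 moves from -0.37 to 0.21 without Sample E.

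Other miRNAs known from brain were uneven in these cells. Of a list of 15 such names, which have 23 entries, miR-7 was the most abundant, with 1475 to 2106 CPM at its leading entry, and miR-128, which restrains neuronal excitability in mouse, followed with 529.9 to 1357 CPM. miR-132 and miR-212, also known from granulosa cells and also listed for them, were at 549.4 to 945.8 and 294.7 to 542.9 CPM, and miR-873 was at 227.5 to 402.4 CPM. Lower still was miR-9-5p, with 60.5 to 98.6 CPM at its leading entry. By contrast miR-124a, a defining miRNA of neurons, had at most 1 count in a library at either entry. The names miR-9-3p, miR-137, miR-138, miR-153, miR-219-5p and miR-488 were also near the floor, at no more than 4.32 CPM in any library. miR-124b and miR-219-3p, 2 of the 23 entries, had no count. The entries of the list summed to 7601 to 9745 CPM in not-cleaved and 7274 to 8242 CPM in blastocyst samples. Most of this sum is every entry of miR-7 (means 1721, 1632 and 1602 CPM) and of miR-128 (means 1021 and 788.2 CPM). Whether entries of the same name count the same molecules was not tested, so the sum may hold them more than once. Of the 12 tested entries of the list, 0 rose and 0 fell (edgeR, with 0 at an unadjusted p under 0.05), and their median log2 fold change was -0.04.

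Of the other marker lists, those of blood cells and of embryo and germ cells were the lowest. Blood cell miRNAs reached at most 20 counts at 7 entries and summed to 0.763 to 5.04 CPM in not-cleaved and 0.806 to 3.66 CPM in blastocyst samples. Those of embryo and germ cells reached 33 counts at 6 entries (0 to 5.09 and 0.123 to 8.45 CPM). The 6 epithelial entries summed to 212.3 to 245.4 and 152.4 to 208.1 CPM, and the 7 entries of striated muscle to 120.3 to 179.7 and 121.7 to 132.6 CPM, most of it miR-499. The 8 entries of the granulosa and gonad list, with miR-21-5p, took 413903 to 500619 and 490193 to 627220 CPM. Of the 2 tested entries of epithelium, the 3 of muscle and the 8 of granulosa and gonads, 0 passed the test, with 2 muscle entries at an unadjusted p under 0.05 in edgeR, both of miR-1. Median log2 fold changes were -0.31, 2.23 and -0.06 in this order. The muscle value comes from miR-1, whose entries were highest in Sample D, at 21.7 and 20.9 CPM. Samples E (6.76 and 3.94 CPM) and F (3.76 and 6.18 CPM) were also above the not-cleaved samples, at most 2.52 and 2.57 CPM. The group difference of miR-1 without Sample D is not given here. In the same list miR-499 had a log2 fold change of -0.32 (SE 0.27). In Sample E, where miR-6528 was nearly lost, the brain, blood, epithelium, muscle and granulosa lists were at 8242, 3.66, 208.1, 121.7 and 490193 CPM, within the range of the other libraries, and the embryo list, at 8.45 CPM, was above it. That embryo value is 29 counts of miR-371 and 1 of miR-302c, and the larger Sample A had 33 counts of miR-371. Within the epithelium list, miR-200c and miR-141 were highest in Sample E, at 8.45 and 4.79 CPM against at most 3.76 and 1.14 CPM elsewhere. These levels rest on 30 and 17 counts. By contrast miR-200a was lowest in Sample E, at 42.5 CPM, and miR-200b, the most abundant of the list, lay within the range of the other libraries. miR-429 and miR-205 had 1 count each in Sample E. The part of these miRNAs in the loss of miR-6528 was not tested.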

How the data were processed

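Small RNA was sequenced by the authors from 6 pools of cumulus cells (NEBNEXT libraries, Illumina NextSeq), and miRNAs were identified by miRBase Release 20. The authors deposited whole-number counts per entry, not normalized, with 1 column per library. Neither the aligner nor the counting tool nor the genome build is named (not given in the sources used here). Letters and groups were read from the column names, which were not tied to single sample labels. The authors' own comparison of the groups (fold changes, p-values) and their log2 heat map values were not used.

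All entries were fitted together. edgeR 4.0.16 in R 4.3.3 kept 358 of 1055 entries by filterByExpr, scaled them by TMM and ran its quasi-likelihood test, with p-values adjusted by Benjamini-Hochberg. The SE was taken as the size of the log2 fold change over the root of F. Single values were compared by exact permutation tests (scipy 1.17.1), shares carry Wilson 95% intervals, and deviations used log2 CPM with a prior count of 2. DESeq2 1.42.0 was an alternative, with other scalings and filters, merged entries and each library left out. Entries named were the 4 members, their neighbours, the 5 most alike by Pearson r (mean of at least 50 counts), the 5 most abundant of those low in Sample E, and up to 5 entries of highest mean CPM in each of 6 marker lists (brain, blood, epithelium, granulosa and gonads, embryo and germ cells, striated muscle), not all of which are named. miR-124a, miR-9-5p and the other low names of the brain list were named after their values were seen. bta-miR-29a, bta-miR-1842 and bta-miR-411a were also named by the likeness order or as values next to the limit. Members and lists were chosen with earlier results of these data known. Entries with a shared seed were not sought and no mature sequence is shown, because no sequences were used here. Gene neighbours were read from RefSeq (ARS-UCD2.0) by name only.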

Additional observations from a re-analysis of the deposited data

How the results depend on the processing

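The group comparison called 0 entries under each of the 12 alternatives, namely DESeq2, scaling by upper-quartile factors or by totals, 2 other filters, merged entries and each library left out, with a lowest adjusted p of 0.583 (edgeR, without Sample E). The log2 fold change of bta-miR-129-5p kept its sign in all 12, and that of bta-miR-129 in the 11 that fitted it, since merging joins it to the 5p entry. That of bta-miR-129-3p did so in 11 of 12, and with a library left out it ran from -0.25 (without Sample D) to 0.40 (without Sample F). Upper-quartile factors moved the median of all entries to 0.32 and the fold changes of the miR-129 entries to 0.65 (5p), 0.70 (no arm named) and 0.47 (3p). With at least 10 counts asked in every library miR-6528 was not tested. Its fold change turned positive without Sample E alone (0.21), and the log2 ratio to miR-129 differed between the groups by -2.20 with all libraries and by -0.05 without Sample E. The difference in summed miR-129 ran from -40.5 CPM (without Sample C) to 376.9 CPM (without Sample A) with a library left out. Against 128.8 CPM in the main analysis, TMM-scaled CPM gave 212.4 and library totals without miR-21-5p gave 716.2. The difference in the share of the 3p arm ran from -3.82 points (without Sample D) to 0.599 (without Sample B), and was -2.15 with the named 5p entry alone. The cause of these turns was not tested. No paired analysis was possible because the columns carry letters and no replicate number shared by the groups. At 1 count, the level of miR-6528 in Sample E is known only within its counting interval.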
